A study of Mus musculus with 8 samples.

Results

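The genes described here are 31 genes of cholesterol synthesis, uptake and efflux, chosen by name for their roles and not by their values in these libraries. All 31 were found once in the count table of 54446 genes and once in the TPM table, and all 31 were among the 15613 genes that passed the filter on low counts. They comprise 7 enzymes of the mevalonate pathway, 11 enzymes that turn its product into cholesterol, 4 genes of SREBP2 control, 5 genes of uptake, transport and storage, and 4 genes of the liver X receptors and cholesterol efflux.

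Expression was measured by mRNA sequencing in Hepa1-6, an established mouse hepatoma line whose strain the labels give as C57BL/6, cultured in medium with fetal bovine serum, which itself carries cholesterol. The 4 groups of 2 libraries were untreated cells (control), cells given 50 µM trimethylamine N-oxide (TMAO, an amine oxide derived from dietary choline), cells given 50 ng/ml of the cytokine TNF-α, and cells given both (combined), each exposure lasting 24 h. In the combined group the treatment label gives TMAO as the name of either agent, while the treatment protocol names TMAO and TNF-α. Libraries carry the numbers 14 and 16, which the labels do not explain, and nothing says that they came from separate cultures, so the p-values reflect library-to-library spread alone, and that spread may be technical. The libraries held 24736746 to 30488605 counts, and a count of 3 corresponded to 0.0984 to 0.121 CPM, the counts scaled to library size, a limit that covers counting error only.

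Cells make cholesterol from acetyl-CoA through mevalonate, isoprenoid units, squalene and lanosterol. When sterol in the endoplasmic reticulum is low, SCAP escorts the membrane-bound factor SREBP2 to the Golgi, where it is cut and freed to switch on the synthesis and uptake genes. INSIG proteins hold SCAP back when sterol is plentiful. Oxysterols activate the liver X receptors (LXR), which switch on the exporters ABCA1 and ABCG1 and the ubiquitin ligase MYLIP that degrades the LDL receptor.

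The labelled cell type was checked against 8 hepatocyte markers. Albumin, alpha-fetoprotein and Hnf4a were high, at group means of 358 to 1197, 608 to 1551 and 128 to 212 CPM, while 4 of the 8 markers stayed below 1 CPM in every library. The summed level of the 8 was 2891 to 3030 CPM in control, 2719 to 2761 with TMAO, 1129 to 1381 with TNF-α and 1087 to 1132 with both, so it was lower in every library with the cytokine, as were several of the genes below. The part of this in the results below was not tested. Of 6 endothelial markers 5 stayed below 1 CPM, with Lyve1 at 0, and their sum was 1.52 to 2.85 CPM over all libraries. Of 7 fibroblast and stellate markers 5 stayed below 1 CPM, with Col3a1 at 0, while decorin (Dcn) had group means of 1294 to 1754 CPM, and the sum was 1649 to 1806 CPM without and 1278 to 1463 CPM with the cytokine. Of 7 macrophage and leukocyte markers 4 stayed below 1 CPM, with a sum of 30.3 to 35.4 CPM without and 27.4 to 40.3 CPM with the cytokine. The 5 cholangiocyte markers, 2 of them below 1 CPM, summed to 65.9 to 70.7 CPM without and 50.8 to 56.1 CPM with it. All 10 NF-κB target genes used to check the labels were higher in each TNF-α or combined library than in each library without the cytokine. The TNF-α library numbered 16 stood apart from the others. Its mean over 12 ribosomal protein genes was 10.5 on the log2(CPM + 1) scale, against 9.61 to 9.87 in the other libraries. The next highest was control 14, at 9.87. In these bulk cultures fewer cells of a kind and less RNA per cell cannot be told apart.

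Promoter sequences are shown for 3 enzyme genes that were lower with TNF-α, Hmgcs1, Nsdhl and Dhcr7, and for the feedback gene Insig1, because SREBP2 acts at promoter sites of such genes. Each run is 250 bases before to 50 bases after the annotated start in RefSeq, build GRCm38.p6, on the plus strand. They are chr13:119690101-119690400 (Hmgcs1), chrX:72918271-72918570 (Nsdhl), chr7:143829964-143830263 (Dhcr7, the third of 3 listed starts) and chr5:28071162-28071461 (Insig1). Capitals mark CCAAT boxes (CCAAT, or ATTGG on the other strand), the site of the factor NF-Y that acts with SREBP, and the SREBP site TCACNCCAC.
Hmgcs1: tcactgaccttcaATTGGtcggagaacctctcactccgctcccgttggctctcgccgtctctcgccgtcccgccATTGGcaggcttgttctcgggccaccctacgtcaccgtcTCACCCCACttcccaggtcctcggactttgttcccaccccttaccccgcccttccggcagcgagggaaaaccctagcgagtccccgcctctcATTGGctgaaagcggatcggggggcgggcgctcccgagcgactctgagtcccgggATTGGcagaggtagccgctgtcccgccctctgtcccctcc
Nsdhl: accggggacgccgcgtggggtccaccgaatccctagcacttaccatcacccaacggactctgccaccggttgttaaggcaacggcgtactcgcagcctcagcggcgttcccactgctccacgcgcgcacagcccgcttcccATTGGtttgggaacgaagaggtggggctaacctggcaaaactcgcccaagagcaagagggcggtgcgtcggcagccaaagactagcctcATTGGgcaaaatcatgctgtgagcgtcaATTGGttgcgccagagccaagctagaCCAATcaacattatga
Dhcr7: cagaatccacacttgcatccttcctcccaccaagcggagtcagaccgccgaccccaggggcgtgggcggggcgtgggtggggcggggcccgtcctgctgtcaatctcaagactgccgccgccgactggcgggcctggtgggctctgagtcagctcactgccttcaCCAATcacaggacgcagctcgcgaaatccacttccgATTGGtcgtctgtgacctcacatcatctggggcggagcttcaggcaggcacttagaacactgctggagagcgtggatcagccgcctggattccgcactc
Insig1: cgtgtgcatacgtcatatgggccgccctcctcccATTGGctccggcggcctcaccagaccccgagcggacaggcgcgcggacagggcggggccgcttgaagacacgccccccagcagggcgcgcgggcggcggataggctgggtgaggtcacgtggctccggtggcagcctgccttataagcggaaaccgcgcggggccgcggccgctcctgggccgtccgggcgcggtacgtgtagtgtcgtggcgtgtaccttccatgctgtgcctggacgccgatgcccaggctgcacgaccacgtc
The Hmgcs1 promoter held 1 SREBP site, which began 137 bases before the start, and 4 CCAAT boxes. The Nsdhl promoter held 4 CCAAT boxes, the Dhcr7 promoter 2 and the Insig1 promoter 1, and the other 2 listed Dhcr7 starts held 0. The motifs marked in these promoters did not overlap one another.

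Promoters were listed for 24 of the 31 genes. Sqle, Fdps, Fdft1, Stard4, Npc1, Scarb1 and Abcg1 were not listed, so their promoters were not examined. A CCAAT box on either strand was present for 19 of the 24 genes (79.2%), against 41.1% of all 27025 genes in the table and 37.4% of its 32851 promoters of 300 bases. The GC box GGGCGG was present for 21 of the 24 (87.5%), against 38.2% of all genes and 35.7% of all promoters. These backgrounds hold every listed gene, expressed in these cells or not, while all 24 passed the filter on low counts. No share was taken over expressed genes alone. TCACNCCAC was found for Hmgcs1 alone among the 24 and in 1.24% of all promoters. The DR4 motif bound by LXR, a pair of AGGTCA copies on 1 strand with 4 bases between them, was found in 0 of the 24 and in 0.0152% of all promoters. Only exact copies were sought, and these are so rare that 0 of 24 does not show that LXR sites are absent. These matches describe letters in these windows and were not tested as binding sites.

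Compared per length, as TPM, the members spanned a wide range in control cells. Squalene epoxidase (Sqle), an early oxygen-requiring step of sterol synthesis, had the highest level at 180 ± 20.6 TPM (mean ± SD, n = 2 here and for each group below). Farnesyl diphosphate synthase (Fdps) followed at 131 ± 3.11 TPM, then the HDL receptor Scarb1 at 96.0 ± 1.11 and Srebf2, the gene of SREBP2, at 76.9 ± 2.82. Hmgcs1 (71.0 ± 3.79) and Msmo1 (67.4 ± 17.7), a sterol C4-methyl oxidase, were next, and their library values overlapped. The lowest were the exporter Abcg1 at 2.96 ± 0.194, Mylip at 1.92 ± 0.138 and Soat1, which esterifies cholesterol for storage, at 0.845 ± 0.0427 TPM. The other exporter, Abca1, stood at 20.9 ± 4.35 TPM, and the LXR genes at 46.9 ± 2.66 (Nr1h2) and 9.71 ± 0.101 (Nr1h3).

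**Figure D1:**
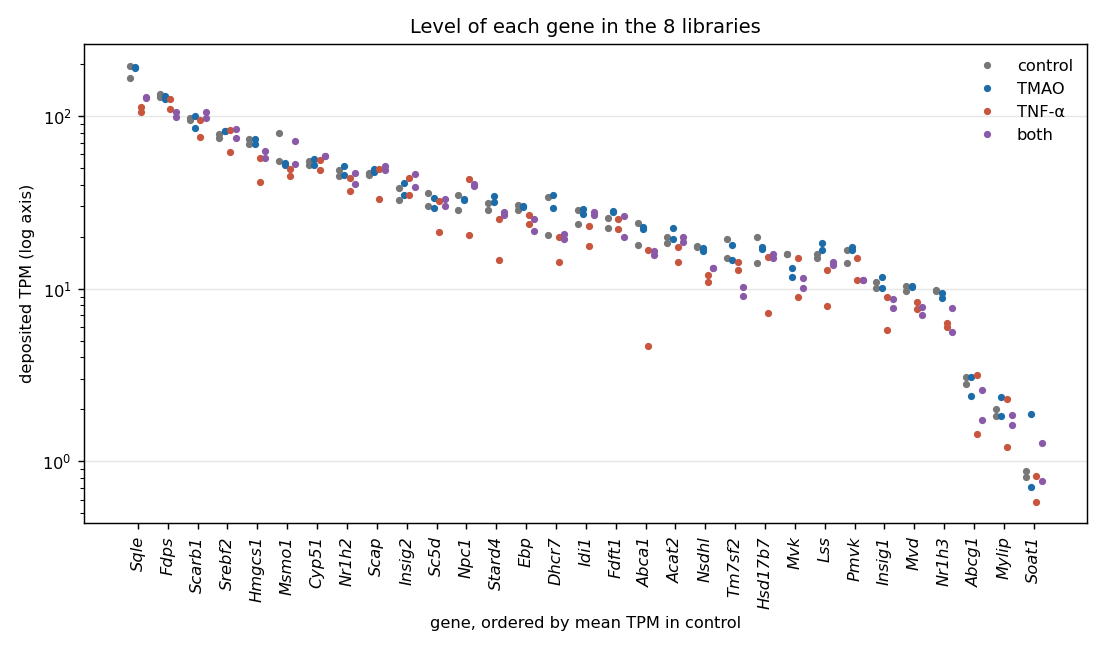
Deposited TPM of the 31 genes in each of the 8 libraries (log axis), 2 points per group, ordered by the control mean. Sqle had the highest control mean, with 105 to 195 TPM over the 8 libraries, and lay below Fdps in TNF-α library 16 (105 against 125 TPM), and Soat1 had the lowest control mean, with 0.585 to 1.88 TPM over the 8 libraries.

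The 2 tables disagreed for 2 genes. Length-scaled counts gave Fdps a control level 73.3-fold under its deposited TPM, and Tm7sf2, a sterol C14 reductase, a level 8.07-fold under. Over 13680 genes, 7.73% lay at least 4-fold under after the median ratio was removed, and these were the only members that did. In GENCODE M21, 26.7% of the exon bases of Fdps are shared on the same strand with the gene Gm43738, and 12.1% of those of Tm7sf2 with Vps51. Whether this sharing sets the counts was not tested, and no setting of the counter is stated in the labels or tables. The counts of Fdps and Tm7sf2 are therefore uncertain, and their TPM values are given beside them. On the opposite strand, exons of other genes cover 18.3% of the exon bases of Fdft1 (Ctsb), 13.2% of Scap and 12.1% of Hmgcs1 (Gm48342), so these counts are uncertain too if the counting ignored strand.

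To find what TNF-α did to these genes irrespective of TMAO, the 4 libraries with the cytokine were compared with the 4 without it in a model fitted to all genes. Of the 31 genes 4 fell, Sqle, Dhcr7, Nsdhl and Hmgcs1, and 0 rose, at a Benjamini-Hochberg adjusted p below 0.05 in edgeR (quasi-likelihood F test, adjusted over all genes). That is 12.9% of the members lower, against 3.86% of all genes lower, 5.35% higher and 9.2% called in all. The log2 fold change was below 0 for 26 of the 31, with a median of -0.31 where the median of all genes was 0.0032. The 4 that fell are synthesis enzymes, 1 of the 7 mevalonate enzymes and 3 of the 11 sterol enzymes.

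Sqle had 271 and 264 CPM in the control libraries (14 and 16 in that order, here and below), 256 and 263 with TMAO, 164 and 175 with TNF-α, and 171 and 171 with both. The 4 libraries with the cytokine all lay below the 4 without it, and the libraries of a group differed far less than the levels with and without the cytokine. The log2 fold change was -0.63 ± 0.07 (± SE; adjusted p = 0.00183), a 1.55-fold lower level. Sqle passed in all 19 alternative settings, with values from -0.66 to -0.60. These settings include fits that left out a TNF-α library, where passing is no check of a call.

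Dhcr7, the reductase of the last step to cholesterol, had 35.2 and 34.0 CPM in control, 32.8 and 35.3 with TMAO, 24.0 and 24.9 with TNF-α, and 24.0 and 25.6 with both. Here too the libraries with and without the cytokine did not overlap. The change was -0.48 ± 0.07 (adjusted p = 0.00759). In the TPM table Dhcr7 was less even, with control libraries at 33.8 and 20.5 TPM. Combined library 16 had 20.8 TPM, just above control 16, so on that scale the libraries overlapped. Dhcr7 passed in 13 of the 19 alternative settings, a count that also includes the fits without a TNF-α library.

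Nsdhl, a dehydrogenase that removes C4-methyl groups from sterols, had 19.0 and 18.1 CPM in control, 16.9 and 18.1 with TMAO, 12.0 and 13.5 with TNF-α, and 13.9 and 13.3 with both. The change was -0.45 ± 0.08 (adjusted p = 0.0155), with no overlap between libraries with and without the cytokine. Hmgcs1, the HMG-CoA synthase that feeds the mevalonate pathway, had 87.5 and 82.3 CPM in control, 77.3 and 80.0 with TMAO, 63.8 and 70.8 with TNF-α, and 62.6 and 67.0 with both. Its change of -0.31 ± 0.07 passed narrowly (adjusted p = 0.0437). Nsdhl passed in 12 and Hmgcs1 in 8 of the 19 alternative settings, and both stayed below 0 in all of them. Both counts include the fits that left out a TNF-α library, where passing is no check of these calls. The counts therefore overstate how firmly the calls of Nsdhl and Hmgcs1 held. Of the 4 promoters shown above, those of Hmgcs1, Nsdhl and Dhcr7 belong to genes that passed this test.

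**Figure D2:**
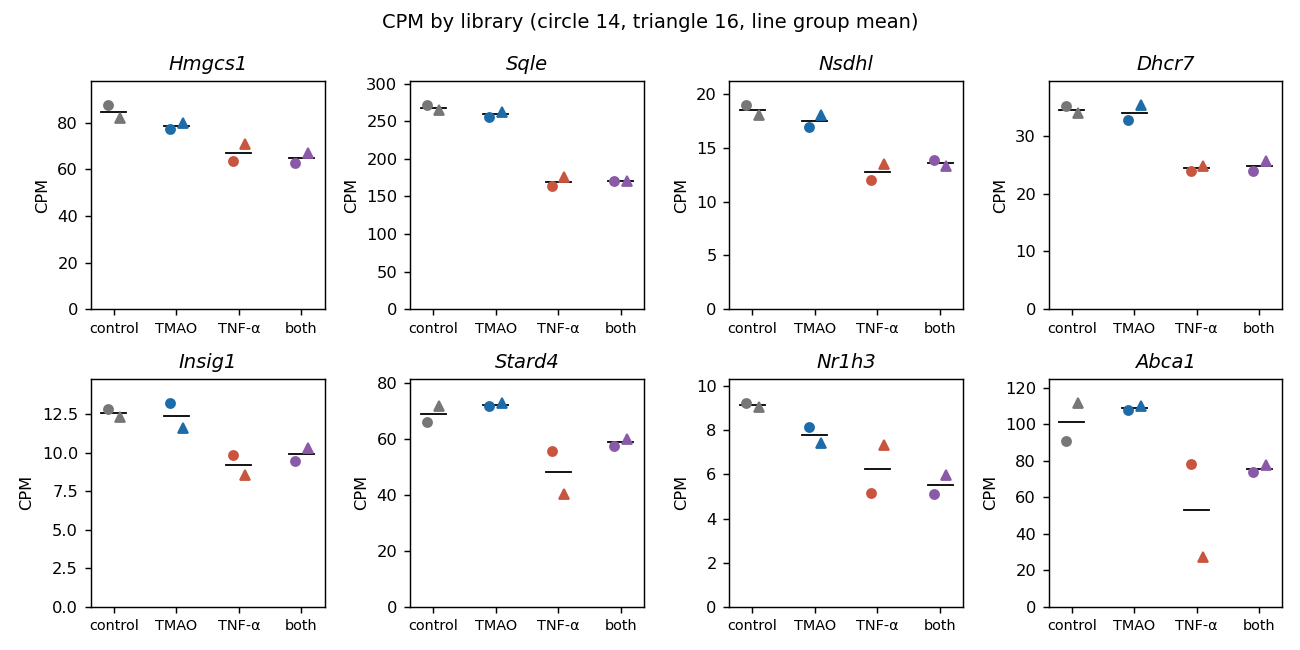
CPM of 8 of the genes in each library (circle for 14, triangle for 16), with a line at each group mean and axes from 0. Sqle stood at 256 to 271 CPM without TNF-α and at 164 to 175 CPM with it, while Abca1 had 27.4 CPM in TNF-α library 16 and 74.1 to 78.5 CPM in the other 3 libraries with the cytokine.

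By CPM, in 12 of the 31 genes (38.7%) all 4 libraries with TNF-α lay below all 4 without it, against 10.2% of all genes. In 0 members did all 4 lie above, against 9.81% of all genes. Besides the 4 called genes these were Fdps, Lss, Sc5d, Insig1, Stard4, Nr1h3, Abca1 and Abcg1. Their adjusted p ran from 0.0503 (Insig1) to 0.335 (Sc5d). By TPM the libraries with and without the cytokine overlapped for Dhcr7, Fdps, Sc5d and Abcg1.

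Among the other mevalonate enzymes, Mvd, the decarboxylase that forms isopentenyl diphosphate, had 8.65 and 7.89 CPM in control, 8.65 and 8.35 with TMAO, 6.91 and 8.02 with TNF-α, and 5.43 and 6.21 with both (-0.35 ± 0.10, adjusted p = 0.0937). TNF-α library 16 was level with the libraries without the cytokine, and the other 3 were lower. The kinases Mvk (-0.32) and Pmvk (-0.34), the isomerase Idi1 (-0.28) and the thiolase Acat2 (-0.14) had wider intervals that included 0. All 7 mevalonate enzymes had averaged values below 0, but within the number 16 TNF-α against control was above 0 for Acat2, Mvk, Pmvk and Mvd. The averaged value was -0.09 for Mvk, -0.16 for Pmvk and -0.47 for Idi1 without TNF-α 14, and -0.66, -0.57 and -0.13 without TNF-α 16. Fdps counts gave -0.68 ± 0.21 (adjusted p = 0.112) from only 1.03 to 2.45 CPM. Its TPM was 134 and 129 in control, 131 and 125 with TMAO, 109 and 125 with TNF-α, and 98.8 and 105 with both. On that scale the combined libraries were lowest and TNF-α library 16 was level with TMAO library 16.

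Among the other sterol enzymes, lanosterol synthase (Lss) had -0.47 ± 0.12 (adjusted p = 0.0519), with 32.0 to 36.1 CPM without the cytokine and 19.4 to 26.8 CPM with it. The 17-beta-hydroxysteroid dehydrogenase gene Hsd17b7 had -0.34, the isomerase Ebp -0.24, squalene synthase (Fdft1) -0.21, Msmo1 -0.18 and the desaturase Sc5d -0.13, none past the test. Cyp51, which demethylates lanosterol, did not share the direction, at 97.2 to 102 CPM without TNF-α and 98.5 to 112 CPM with it. Its 95% interval of the log2 fold change ran from -0.11 to 0.23, and the difference from Sqle was not tested. Tm7sf2 had 0.14 by counts, and by TPM 17.2 ± 3.20 in control, 16.3 ± 2.18 with TMAO, 13.5 ± 0.914 with TNF-α and 9.61 ± 0.860 with both, the opposite direction.

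**Figure D3:**
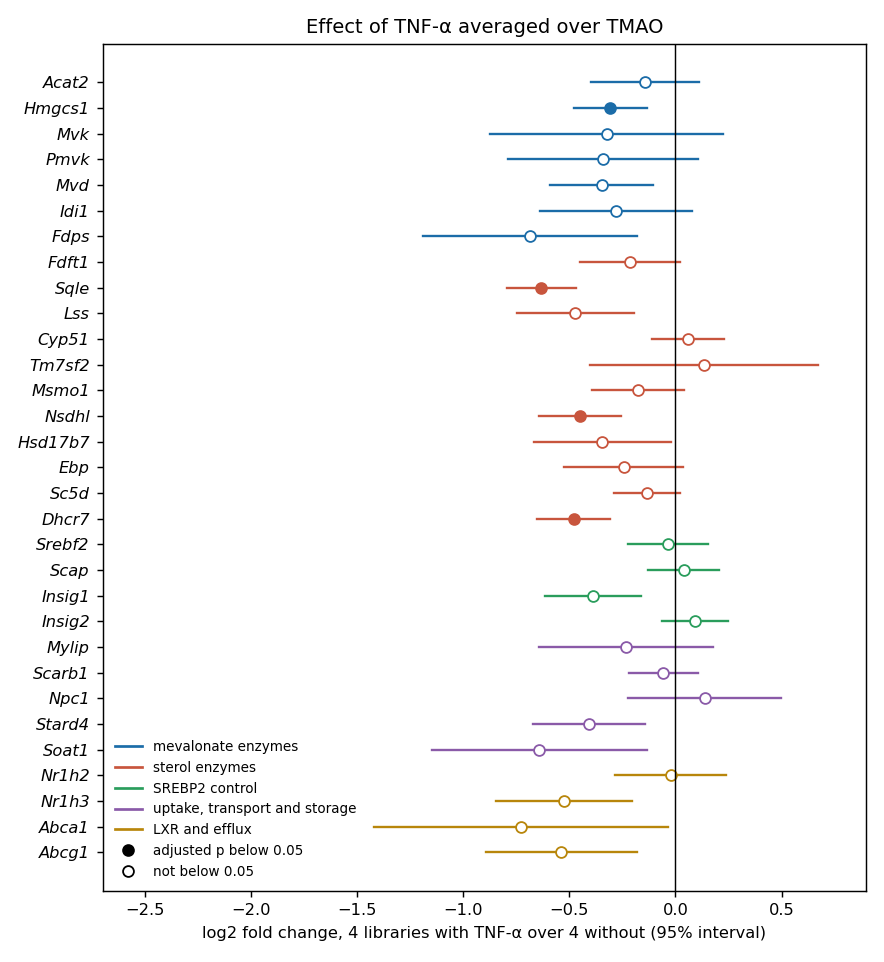
Log2 fold change of the 31 genes for the 4 libraries with TNF-α over the 4 without, with 95% intervals, coloured by role, and filled points at an adjusted p below 0.05. The filled points are Hmgcs1, Sqle, Nsdhl and Dhcr7, and 26 of the 31 points lie below 0.

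The genes of SREBP2 control did not move as a block. Srebf2 stood at 218 to 224 CPM without TNF-α and 195 to 229 CPM with it, with a 95% interval from -0.22 to 0.15. Scap, the SREBP escort, stood at 59.3 to 64.2 CPM and 60.3 to 67.4 CPM, with an interval from -0.13 to 0.21. Insig1, itself an SREBP target, had 12.8 and 12.3 CPM in control, 13.2 and 11.6 with TMAO, 9.83 and 8.52 with TNF-α, and 9.45 and 10.3 with both. Its libraries with and without the cytokine did not overlap, and the change of -0.39 ± 0.10 just missed the threshold (adjusted p = 0.0503). Insig2, its paralog that does not depend on SREBP, had 55.3 and 58.2 CPM in control, 53.1 and 54.0 with TMAO, 61.0 and 58.9 with TNF-α, and 59.0 and 56.1 with both (0.09, interval -0.06 to 0.25), and its libraries overlapped. The difference between the Insig genes was not tested.

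Of the 5 genes of uptake, transport and storage, 0 passed by edgeR, and 2 had an unadjusted p under 0.05, against 20.4% of all genes. Stard4, a carrier that moves cholesterol between membranes, had 66.0 and 71.7 CPM in control, 71.5 and 72.7 with TMAO, 55.7 and 40.2 with TNF-α, and 57.4 and 60.0 with both (-0.41 ± 0.11, adjusted p = 0.0732). Each library with the cytokine was below each without it, and TNF-α library 16 was the lowest. Soat1 had 1.69 and 2.38 CPM in control, 1.96 and 2.85 with TMAO, 1.32 and 1.32 with TNF-α, and 1.29 and 1.74 with both (-0.64 ± 0.21, adjusted p = 0.136), with an overlap between control 14 and combined 16. Scarb1 had -0.06 and Mylip -0.23, with intervals that included 0. Npc1, which exports cholesterol from lysosomes, had 67.6 and 75.4 CPM in control, 73.3 and 72.0 with TMAO, 91.5 and 55.5 with TNF-α, and 85.1 and 85.9 with both. Of the libraries with TNF-α, 3 were thus above all of those without and library 16 was below them, and the pooled change of 0.14 ± 0.15 did not pass (adjusted p = 0.727). For TNF-α against control Npc1 was called lower without TNF-α 14 (-0.38) and higher without TNF-α 16 (0.36).

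By CPM, 3 of 4 genes in the LXR and efflux group had all libraries with TNF-α below all without, against 10.2% of all genes. By edgeR 0 of the 4 passed the test, with 3 at an unadjusted p under 0.05 against 20.4% of all genes. Nr1h3, the gene of LXRα, had 9.23 and 9.07 CPM in control, 8.13 and 7.42 with TMAO, 5.16 and 7.32 with TNF-α, and 5.10 and 5.96 with both (-0.52 ± 0.14, adjusted p = 0.0616). Abcg1 had 4.87 and 5.24, 3.99 and 5.20, 3.64 and 3.02, and 2.91 and 3.69 CPM in the same order of groups (-0.54 ± 0.15, adjusted p = 0.0796). By CPM both genes were thus lower in every library with the cytokine than in any without it, without passing the test. By TPM this did not hold for Abcg1, where TNF-α 14 (3.17 TPM) was above every library without the cytokine (2.40 to 3.10 TPM). Abca1 had 90.7 and 112 CPM in control, 108 and 110 with TMAO, 78.5 and 27.4 with TNF-α, and 74.1 and 77.5 with both (-0.73 ± 0.29, adjusted p = 0.218). The value was -0.45 without TNF-α 16 and -1.20 without TNF-α 14. Nr1h2, the gene of LXRβ, had 60.8 and 50.5 CPM in control, 50.9 and 52.7 with TMAO, 49.6 and 64.4 with TNF-α, and 47.1 and 51.1 with both (-0.02, interval -0.28 to 0.24), so that the libraries overlapped widely.

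TNF-α was also compared in 2 sets of libraries that share none, without TMAO (TNF-α against control) and with it (combined against TMAO). Of the 31 genes 25 had lower values in both comparisons, 4 had higher values in both, and Scap and Nr1h2 differed in sign. Across genes, which are not independent replicates, Pearson's r was 0.72 and Spearman's rho 0.76 over the 31. Shared signs and correlations were not taken over all genes, so no background stands beside these values. Sqle passed in each, at -0.66 ± 0.10 (adjusted p = 0.0142) and -0.60 ± 0.10 (adjusted p = 0.0193). Dhcr7 passed in the former (-0.50 ± 0.10, adjusted p = 0.0461) and had -0.46 in the latter (adjusted p = 0.0665). That is 6.45% of the members lower against 1.67% of all genes for TNF-α against control (4.05% called in all), and 3.23% against 1.49% for combined against TMAO (3.64% called in all). In combined against control, which shares its control libraries with the first, Sqle alone passed (-0.65, adjusted p = 0.0152), 3.23% of the members lower against 1.48% of all genes (3.49% called in all). In each of these 3 comparisons no member stayed past the threshold when any 1 control, TMAO or combined library was left out. Those fits kept TNF-α 14 and 16, and fewer of all genes were called in them too. The loss of these calls therefore says little about the members alone. Without TNF-α 14 or 16, the members called numbered 14 and 11 for TNF-α against control (48.9% and 12.9% of all genes), 17 and 17 for combined against control (18.2% and 18.4%), and 12 and 12 for combined against TMAO (16% and 16%).

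**Figure D4:**
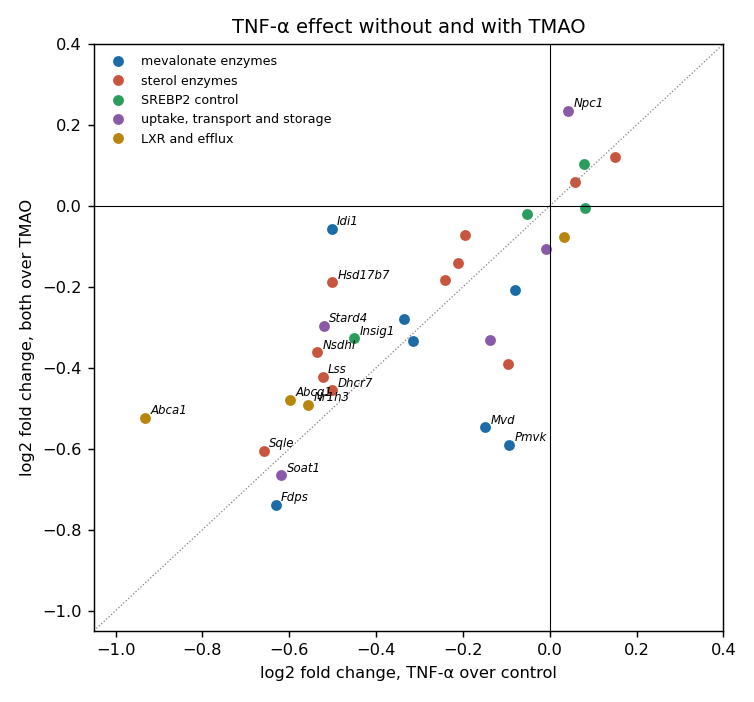
Log2 fold change with TNF-α in cells without TMAO (horizontal) and in cells with TMAO (vertical) for the 31 genes, with a dotted line of equal change. Of the points 25 lie below 0 on both axes, and Abca1, at -0.93 and -0.52, lies farthest to the left, where its horizontal value is -0.37 without TNF-α library 16.

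With all libraries, TMAO moved none of these genes past the test. In TMAO against control and in TMAO averaged over TNF-α, 0 members were called by edgeR, DESeq2 or limma-voom. By edgeR 0% of all genes were called there. Also by edgeR 0 members had an unadjusted p under 0.05, against 1.18% and 2.9% of all genes. With both agents against TNF-α alone 0 were called by the 3 tools, again with 0% of all genes called by edgeR. Mvd (-0.36) alone had an unadjusted p under 0.05 by edgeR, 3.23% of the members against 3.52% of all genes. The averaged TMAO change was -0.02 for Sqle (95% interval -0.18 to 0.14), 0.0005 for Dhcr7 (-0.17 to 0.17), 0.01 for Nsdhl (-0.19 to 0.20) and -0.08 for Hmgcs1 (-0.25 to 0.09). For these 4 genes the intervals do not include the averaged TNF-α changes given above. Over all members the averaged TMAO values ran from -0.35 (Mvk) to 0.31 (Abca1), and the median half-width of their intervals was 0.26. The interaction of the agents had 0 members called by the 3 tools, with 0% of all genes called by edgeR. At an unadjusted p under 0.05 in edgeR there were 0 members, against 1.18% of all genes. Its values ran from -0.50 (Pmvk) to 0.45 (Idi1), with a median half-width of 0.52 over the members. Its 95% intervals were -0.27 to 0.38 for Sqle, -0.30 to 0.39 for Dhcr7, -0.21 to 0.56 for Nsdhl and -0.29 to 0.40 for Hmgcs1. Without TNF-α 14, where TNF-α 16 alone stands for its group, 15 members were called with both agents against TNF-α (49.4% of all genes), 14 for TMAO averaged over TNF-α (44.8% of all genes) and 8 for the interaction (35.5% of all genes). The members' shares were 48.4%, 45.2% and 25.8%, near or below those of all genes.

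The count of called members depended on single libraries. For TNF-α averaged over TMAO, 4 were called with all libraries. Sqle alone was called without control 14, TMAO 16 or combined 14, where 1.75%, 1.58% and 1.6% of all genes were lower. Sqle and Dhcr7 were called without control 16, TMAO 14 or combined 16, where 1.7%, 1.62% and 1.64% of all genes were lower. Without TNF-α 16, 18 fell and Npc1 rose, 58.1% and 3.23% of the members against 12.8% and 12.2% of all genes. Without TNF-α 14, 16 fell and 0 rose, 51.6% against 23.6% of all genes lower and 22% higher. Leaving out either of those libraries takes the most discordant group out of the shared estimate of spread, so that passing there is no check of these calls. The median of the 31 log2 fold changes was -0.31 without TNF-α 16 and -0.27 without TNF-α 14.

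The TNF-α libraries differed from each other in the members too. Taking library 14 minus library 16 in each group, the 31 log2 differences had an SD of 0.54 in the TNF-α group, 0.19 in control, 0.17 with TMAO and 0.15 with both. Abca1 was 2.86-fold lower in TNF-α 16 than in TNF-α 14, Npc1 1.65-fold and Idi1 1.60-fold lower, while Mvk was 2.18-fold, Tm7sf2 1.96-fold and Pmvk 1.74-fold higher. Across the members this difference had a Spearman's rho of -0.56 with exon length in GENCODE M21, and over 10176 genes with at least 100 counts in both libraries rho was -0.70. These are descriptions over genes that share 2 libraries, and the part of length in the results was not tested. Within the number 14, 27 of the 31 genes were lower with TNF-α than in control and 27 lower with both than with TMAO. Within 16 these counts were 18 and 25. Lower values in all 4 of these pairs were seen for 15 genes, among them Sqle, Dhcr7, Nsdhl and Hmgcs1. Shares of all genes were not counted for these pairs, and the labels do not say that the numbers pair libraries. The counts are therefore descriptions only.

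**Figure D5:**
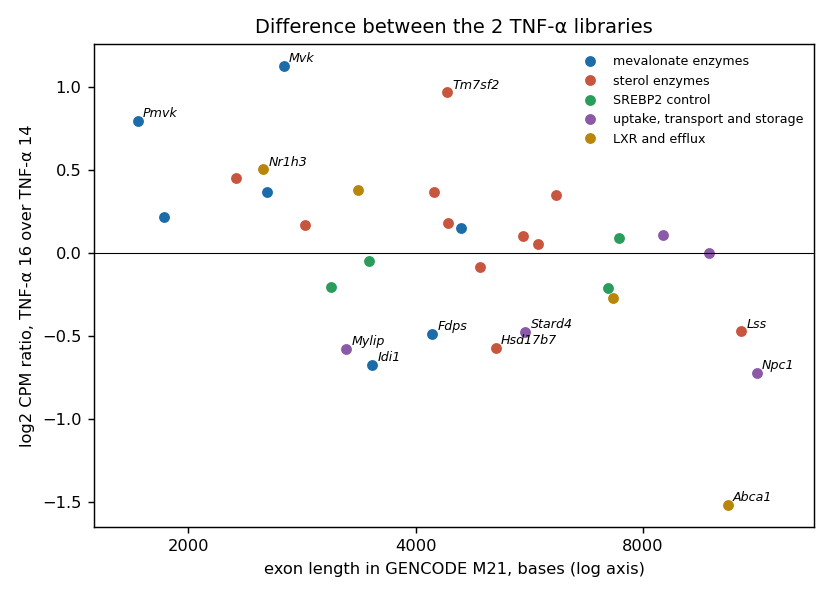
Log2 ratio of CPM between the TNF-α libraries (16 over 14) for the 31 genes against exon length in bases (log axis). Abca1 lies lowest at -1.52 and Mvk highest at 1.13, and the longer genes tend to lie lower.

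Other genes of the pathway were taken from lists written by role. Of 12 further genes of isoprenoid and sterol synthesis, 10 were tested and 0 were called in any comparison, with a median of -0.06 for TNF-α averaged over TMAO. Of 12 further genes of SREBP processing and sterol control in the endoplasmic reticulum, 0 were called (median -0.07), by edgeR in both lists. For TNF-α averaged over TMAO 9.2% of all genes were called, and 0 in lists this short is not far from that share. Of 21 further genes of cholesterol transport, esters and efflux, 17 were tested, 1 rose and 1 fell. That is near the shares of all genes, 5.35% higher and 3.86% lower. Npc2, the soluble lysosomal partner of Npc1, had 81.2 to 96.5 CPM without TNF-α and 118, 181, 119 and 118 CPM with it (0.60 ± 0.14, adjusted p = 0.0397), the 181 in TNF-α 16. Osbpl2, an oxysterol-binding protein gene, fell by 0.31 ± 0.07 on the log2 scale (adjusted p = 0.0331), from 44.8 to 48.1 CPM without the cytokine to 36.6 to 38.6 CPM with it.

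Of 9 further LXR target genes 4 were tested and 1 fell by edgeR, against 3.86% of all genes. It was Lpcat3, a phospholipid acyltransferase, with 117 to 123 CPM without the cytokine and 87.8 to 93.8 CPM with it (-0.41 ± 0.07, adjusted p = 0.00934). Of 9 bile acid and oxysterol genes 3 were tested and 1 rose by edgeR, against 5.35% of all genes. It was Nr1h4, the gene of the bile acid receptor FXR, with 4.19 to 5.08 CPM without and 6.94 to 9.43 CPM with the cytokine (0.89 ± 0.12, adjusted p = 0.00504). Of 14 fatty acid synthesis genes, driven mainly by SREBP1, 12 were tested and 3 fell, against 3.86% of all genes. They were the desaturases Scd1 (-0.80) and Scd2 (-0.63), and Me1 (-0.30), the malic enzyme that supplies NADPH, with adjusted p of 0.00587, 0.0114 and 0.0499.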

How the data were processed

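Gene counts and TPM were analysed for 8 libraries of Hepa1-6 cells, 2 in each of 4 groups taken from the titles. The authors deposited whole-number counts per versioned Ensembl identifier, with htseq named as the counter in the table's name and no settings. The authors also deposited TPM values per gene symbol, made by a program not given in the sources used here. Per the submitters' processing notes the build was mm9, while the identifiers were matched to GENCODE M21 names, where 37 had no symbol. No coordinates were taken from the tables, and those of promoters are from RefSeq's GRCm38.p6. Each library held 24736746 to 30488605 counts.

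Counts were tested with edgeR 4.0.16 in R 4.3.3 (filterByExpr, TMM scaling, 4 group means, robust quasi-likelihood fit to all 8 libraries, 4 residual degrees of freedom), with Benjamini-Hochberg adjustment over 15613 genes at 0.05 and no fold limit, in 8 contrasts. CPM values carry no pseudocount. DESeq2 1.42.0, limma-voom (limma 3.58.1), other scalings and filters, a replicate block, fits without single libraries and limma on log2(TPM + 1) or log2(TPM + 0.1) were alternatives. Every member could be named, and values in all libraries were given for members called in any contrast, the 2 per role with the smallest p, and the LXR genes and exporters. From other lists only called genes were named. The members, lists and rules were chosen with earlier results of these data known. The fit was tested on simulated data. Some genes of the pathway are not reported here.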

Additional observations from a re-analysis of the deposited data

How the results depend on the processing

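All counts here are of the 31 members called. Shares in parentheses are of all genes tested in the same fit. In the order of the first 4 comparisons below, DESeq2 called 5.24%, 5.01%, 4.96% and 9.1% of all genes. Without a filter on low counts these shares were 3.18%, 2.99%, 3% and 5.98%. By TPM they were 1.64%, 1.83%, 1.96% and 5.43% with a pseudocount of 1, and 1.43%, 1.7%, 1.8% and 5.18% with 0.1. With TPM and no filter they were 0.465%, 0.414%, 0.569% and 1.96%. With TNF-α against control (2 called), 1 was called without a filter on low counts, 0 when only these groups were fitted (0.00672%), 0 with a replicate block (2.19%), 15 without TNF-α 16 and control 14 (20.1%), and 1, 1 and 0 by TPM (pseudocount 1, pseudocount 0.1, no filter). Leaving out single libraries gave 0 to 14. With both against control (1 called), DESeq2 called 2, no filter 2, the 2 groups alone 14 (15.9%), the replicate block 0 (1.93%), the fit without TNF-α 16 and control 14 called 16 (22.8%), and TPM 0 in each form, with 0 to 17 over single libraries. With both against TMAO (1 called) these were 20 for the 2 groups alone (31.9%), 0 with the replicate block (2.07%), 20 without those 2 libraries (29.7%), 0 by TPM in each form and 0 to 12 over single libraries. For TNF-α averaged over TMAO (4 called) DESeq2 called 7, the fit without those 2 libraries 22 (34%), TPM 2, 2 and 1, and single libraries 1 to 19, while the replicate block called 3 (6.48%). Over single libraries both against TNF-α ranged from 0 to 15, TMAO averaged over TNF-α from 0 to 14 and the interaction from 0 to 8, with every call made without TNF-α 14. The cause was not tested. Without TNF-α 16 or TNF-α 14 the lone library is assumed to vary like the other groups. Sqle kept its direction and its call for TNF-α averaged over TMAO in all 19 other settings (-0.66 to -0.60), and none of Sqle, Dhcr7, Nsdhl and Hmgcs1 changed sign in that contrast in any setting. Npc1, not called with all libraries, was called lower without TNF-α 14 (-0.38) and higher without TNF-α 16 (0.36) for TNF-α against control. The TPM scale with a pseudocount of 0.1 put the median of all genes at -0.10 for TNF-α against control. Whether the numbers 14 and 16 pair the libraries is unknown, as the labels do not explain them. Over all genes no positive shared shift was seen, with deviations of same-numbered libraries correlated at -0.42 to 0.000043 between groups. Over the 31 members the range was -0.78 (control and TNF-α) to 0.61 (TMAO and both). Depth was lowest for Fdps, Tm7sf2, Soat1, Mylip and Abcg1, whose values are the least precise by counting error.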
